A study of Homo sapiens with 6 samples.

Results

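Mitochondrial ribosomal proteins were followed in CAL62 cells treated with erianin, a bibenzyl compound from Dendrobium orchids. The genes were chosen by name: a protein-coding symbol beginning MRPL or MRPS, followed by a number and, in some, by the letter A, B or C. Of 39168 gene identifiers in the count table, 74 carried such a symbol. MRPL58, the peptidyl-tRNA hydrolase built into the large subunit, was listed at 0 in all libraries and left out, which gave 73 genes. All 73 passed the filter on low counts and were among the 12821 genes tested. Of these, 48 encode proteins of the large subunit and 24 of the small subunit. The remaining gene, MRPS36, was named as a ribosomal protein and is now known as a subunit of the 2-oxoglutarate dehydrogenase complex. MRPL30, MRPL45, MRPS17 and MRPS21 were not analysed here.

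The mitochondrial ribosome, or mitoribosome, translates the few mRNAs encoded by mitochondrial DNA, which specify core subunits of the respiratory chain and of the ATP synthase. Its RNAs are made inside the organelle, but all of its proteins are encoded in the nucleus, translated in the cytosol and imported. Some have a counterpart in the bacterial ribosome and others were gained in mitochondria, and several proteins named for the small subunit (MRPS18A, MRPS30) sit in the large one.

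CAL62 is an established cell line from an anaplastic thyroid carcinoma, labelled with the genotype WT. Cells received 50 nM erianin or an equal concentration of the solvent DMSO for 48 h, in 3 replicate libraries per group. The data come from 1 cell line, and the labels do not say whether the replicates were grown as separate cultures, so p-values measure only the spread between these libraries. Where a level differs in bulk RNA, fewer cells expressing a gene and less RNA per cell cannot be told apart.

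Counts on named genes ranged from 25776301 to 34107727 per library, of which the 73 genes held 0.421% to 0.458%. Of the thyroid markers, TG, TSHR, NKX2-1 and SLC5A5 were at or below 0.275 TPM in every library and FOXE1 at or below 3.65 TPM, while PAX8 lay between 105 and 150 TPM and was itself called lower with erianin (log2 fold change -0.66, adjusted p = 0.00404). The epithelial keratins KRT8 and KRT18 and the mesenchymal filament gene VIM were at 299.8 TPM or more, and VIM was called lower (-0.47, adjusted p = 0.0300). VIM was no longer called with each library's trend on GC content removed (adjusted p = 0.0592). The part of these differences in the members' results was not tested. PTPRC, CD3E, LYZ, CD68, PECAM1, CDH5, VWF, KDR, COL3A1, DCN and LUM, which mark leukocytes, endothelium and fibroblasts, stayed at or below 0.29 TPM, and the fibroblast marker COL1A1 lay between 12.04 and 14.68 TPM.

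DMSO replicate 3 stood apart from the other libraries. Its distance from DMSO replicates 1 and 2 over all genes, on the log2 CPM scale, was 64.1 and 62.9, against 37.2 between those 2 libraries and 28.2 to 29 among the erianin libraries. CPM here means counts relative to the library total, per 1e6 counts, after TMM scaling of the libraries. In 35 of the 73 genes DMSO replicate 3 was the lowest of the 6 libraries, and in 12 it was the highest. The median absolute difference of a member from the mean of DMSO replicates 1 and 2 was 0.33 on the log2 scale, against 0.0557 between replicates 1 and 2. The log2 difference ran from -1.87 in MRPL12 to 0.78 in MRPS11. It went down as the GC content of the transcripts went up (Pearson's r = -0.55 across the 73 genes and -0.54 across all genes tested, a description of 1 library, since genes are not independent replicates). Its median was 0.05 in the 25 members lowest in GC, -0.15 in the middle 23 and -0.47 in the 25 highest. Values without that library are given beside the results they change, and values with the GC trend of each library removed are given for the members named below whose call they change.

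**Figure D1:**
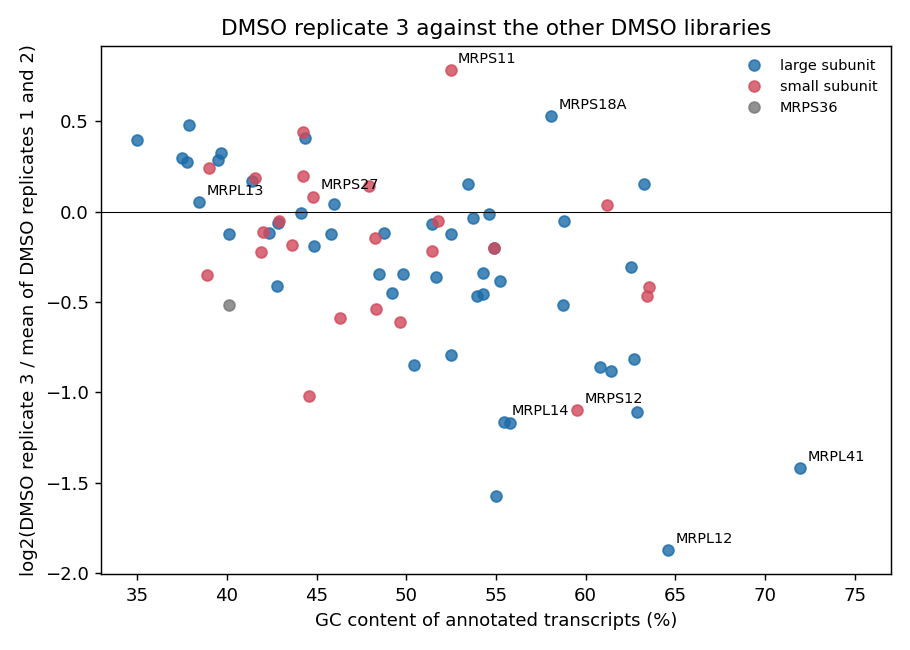
Each point is 1 of the 73 genes, with the GC content of its annotated transcripts in percent on the horizontal axis and the log2 ratio of DMSO replicate 3 to the mean of DMSO replicates 1 and 2 on the vertical axis. The ratio spans -1.87 (MRPL12) to 0.78 (MRPS11) and is lower in genes of high GC content.

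With all 6 libraries, 7 of the 73 genes passed the test (edgeR's quasi-likelihood test on the counts, Benjamini-Hochberg adjusted p under 0.05 over all genes tested). One gene, MRPL13, rose with erianin. MRPS18A, MRPS27, MRPS9, MRPS2, MRPL37 and MRPL4 fell. Among all genes tested, 7.22% were called higher and 7.69% lower, so the 1.37% of members called higher lay below the background and the 8.22% called lower lay near it. Differentially expressed genes (DEGs) also needed an absolute log2 fold change over 0.5, which 3 members met, all lower (MRPS18A, MRPS27 and MRPS9), and which 8.73% of all genes tested met. The median log2 fold change was -0.01 over the members and 0.00 over all genes tested.

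The genes that fell are given first, since a gene's promoter lies around its start, with DNA from before the RefSeq start. It is given for those where a stretch clear of annotated coding-gene exons could be read. Not all stretches reach the start. Counting the base next to the start as -1, those of MRPS18A and MRPL37 end at -1. The last printed base is at -22 in MRPS27, at -51 in MRPL4 and at -87 in MRPS9. The gene spans given further on are GENCODE's and run to the outermost annotated transcript, so the stretches of MRPS27 and MRPL37 lie inside them. The sequences are RefSeq's for GRCh38.p14, each printed 5′ to 3′ on the strand of its gene. Capitals mark the letters CCGGAAG (the core bound by ETS family factors) or CCAAT (the CCAAT box), or their reverse complements. MRPS2 had no such stretch of 60 bases or more, and none is printed for MRPL13.
MRPS27, chr5:72320262-72320366, minus strand: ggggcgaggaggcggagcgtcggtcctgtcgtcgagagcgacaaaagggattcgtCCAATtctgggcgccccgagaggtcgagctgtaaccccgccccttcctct
MRPS9, chr2:105037863-105037982, plus strand: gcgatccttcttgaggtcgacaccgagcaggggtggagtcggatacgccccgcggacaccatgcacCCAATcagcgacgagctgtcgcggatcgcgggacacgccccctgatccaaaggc
MRPS18A, chr6:43687792-43687911, minus strand: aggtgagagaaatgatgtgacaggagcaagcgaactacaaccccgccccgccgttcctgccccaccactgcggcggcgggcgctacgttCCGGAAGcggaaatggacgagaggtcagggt
MRPL37, chr1:54200074-54200166, plus strand: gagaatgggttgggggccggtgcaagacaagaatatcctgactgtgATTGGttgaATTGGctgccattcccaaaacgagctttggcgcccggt
MRPL4, chr19:10251781-10251900, plus strand: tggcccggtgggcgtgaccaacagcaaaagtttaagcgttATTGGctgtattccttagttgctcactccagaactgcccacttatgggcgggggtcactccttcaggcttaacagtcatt

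MRPS27 (ENSG00000113048) encodes a mitochondria-specific small-subunit protein built of pentatricopeptide repeats, a fold that often binds RNA. The gene lies at chr5:72219409-72320646 on the minus strand. It was at 192, 180 and 197 CPM in DMSO replicates 1 to 3 and at 131, 127 and 120 CPM in erianin replicates 1 to 3. The groups did not overlap, and the lowest DMSO library stood well above the highest erianin library. This gave a log2 fold change of -0.59 (SE 0.072, adjusted p = 0.00404), a level 33.8% lower. It was -0.57 without DMSO replicate 3. MRPS27 was the one member called when any of the 6 libraries was left out, with a largest adjusted p of 0.0401.

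The other small-subunit genes that fell, MRPS9 and MRPS2, encode counterparts of bacterial ribosomal proteins. MRPS9 (ENSG00000135972, chr2:105037983-105099960, plus strand) was at 29.2, 31.1 and 34.6 CPM with DMSO and at 22.2, 21.9 and 22.7 CPM with erianin. The erianin libraries lay close together and below every DMSO library. Its log2 fold change was -0.51 (SE 0.097, adjusted p = 0.0157), and -0.44 without DMSO replicate 3. MRPS2 (ENSG00000122140, chr9:135499984-135504673, plus strand) was at 127, 118 and 125 CPM with DMSO and at 91.8, 87.4 and 95.6 CPM with erianin. Here DMSO replicate 3 lay between the other DMSO libraries, and the log2 fold change was -0.43 (SE 0.072, adjusted p = 0.0107) with it and -0.42 without it. Removing the GC trend gave -0.34 and no call (adjusted p = 0.068), and with DMSO replicate 3 left out as well it was -0.20 and called.

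MRPS18A, MRPL37 and MRPL4 belong to the large subunit. MRPS18A (ENSG00000096080, chr6:43671303-43687791, minus strand) is 1 of the 3 human relatives of bacterial S18 and, unlike MRPS18B and MRPS18C, is built into the large subunit. It was at 34.4, 36.2 and 50.9 CPM with DMSO and at 26.6, 24.95 and 28.8 CPM with erianin. The groups did not overlap, but DMSO replicate 3 lay far above the other DMSO libraries. The log2 fold change was -0.60 (SE 0.16, adjusted p = 0.0446) with it and -0.40 without it, a difference that takes the gene below the 0.5 threshold for a DEG. Removing the GC trend gave -0.53 and no call (adjusted p = 0.110), and with that library left out as well -0.22 and called (adjusted p = 0.0102). In the annotation 47.0% of its exon bases are also exon bases of RSPH9 on the opposite strand, on which 56 reads were counted against 6388 on MRPS18A.

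MRPL37, a mitochondria-specific protein of the large subunit (ENSG00000116221, chr1:54184041-54225464, plus strand), was at 174, 161 and 186 CPM with DMSO and at 136, 130 and 132 CPM with erianin. Every erianin library lay below every DMSO library. Its log2 fold change was -0.38 (SE 0.076, adjusted p = 0.0175), and -0.33 without DMSO replicate 3. MRPL4, whose bacterial counterpart lines the tunnel through which the nascent chain leaves the ribosome (ENSG00000105364, chr19:10251901-10260045, plus strand), was at 107, 99.6 and 115 CPM with DMSO and at 84.8, 81.9 and 87.8 CPM with erianin. Its groups did not overlap either, and its log2 fold change was -0.34 (SE 0.080, adjusted p = 0.0307), or -0.29 without DMSO replicate 3. MRPL4 was not called with the GC trend removed, at -0.25 (adjusted p = 0.262), and with that library left out as well it was at -0.048 (adjusted p = 0.448).

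MRPL13 (ENSG00000172172, chromosome 8) encodes the large-subunit counterpart of bacterial L13. It was at 50.3, 49.8 and 51.8 CPM with DMSO and at 63.1, 64.3 and 64.6 CPM with erianin. Both groups were tight, and the lowest erianin library lay above the highest DMSO library. The log2 fold change was 0.34 (SE 0.071, adjusted p = 0.0213), a level 26.4% higher, and it was 0.35 without DMSO replicate 3. With each library's trend on GC content removed, the log2 fold change was 0.15 and the gene was no longer called (adjusted p = 0.361).

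**Figure D2:**
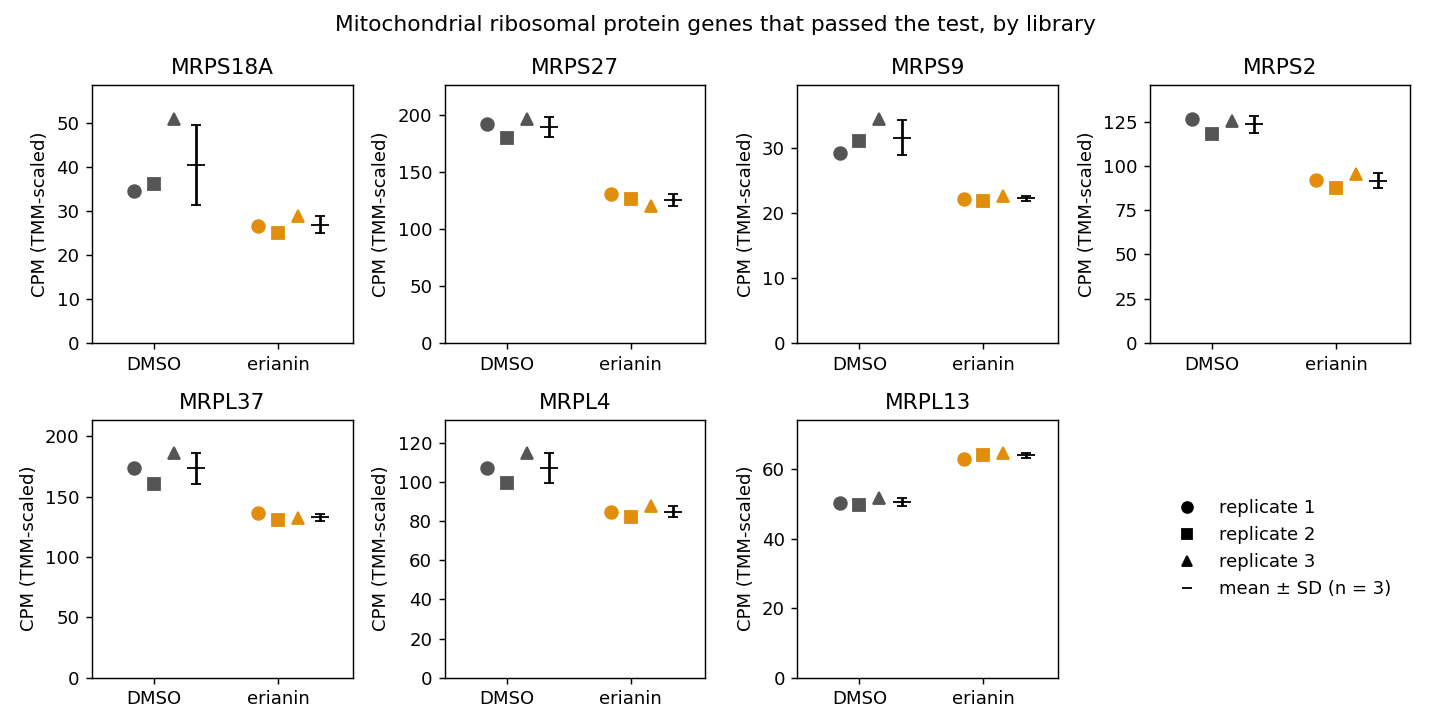
Each panel shows 1 of the 7 genes that passed the test, with the DMSO and erianin libraries on the horizontal axis and TMM-scaled CPM from 0 on the vertical axis. Symbols give the replicate number and the bars the mean ± SD of 3 libraries, and in all 7 panels the groups do not overlap, with MRPL13 the only one higher in erianin.

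Windows from 250 bases before to 50 bases after the start were found in RefSeq (GRCh38.p14) for 64 of the 73 members, among them 6 of the 7 genes that passed the test, all but MRPL13. The ETS letters CCGGAAG, on either strand, stood in the windows of 42.2% of these 64 genes and of 12.2% of all genes with a window. The letters ATGGCGG, part of the motif of YY1, stood in 35.9% against 6.66%, and GCATGCGC, from the motif of NRF1, in 9.38% against 3.68%. The TATA letters TATAAA stood in 4.69% against 14.0%, and CCAAT in 32.8% against 39.7%. Among the genes that passed the test, the ETS letters stood in the window of MRPS18A, beginning 31 bases before the start, and the YY1 letters in those of MRPS18A, MRPS9 and MRPL37. CCAAT stood in 5 of these 6 windows, all but that of MRPS2. These matches describe the letters and not binding.

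Of the 66 members that were not called, 57 had an absolute log2 fold change under 0.25. The median SE over the members was 0.118, and differences well above it could go uncalled. No member with a smaller absolute log2 fold change than MRPL4 (-0.336) was called. MRPS11 (-0.52), MRPL38 (0.50), MRPL33 (0.44) and MRPS23 (0.343) exceeded that size and were not called. The CPM values of 25 members did not overlap between the groups, 8 of them (10.96% of members) higher in erianin and 17 (23.3%) lower. Among all genes tested, 19.5% did not overlap and were higher, and 19.3% did not overlap and were lower. At an unadjusted p under 0.05 edgeR gave 2 members higher and 14 lower, where 15.3% of all genes tested were higher and 15.6% lower. DESeq2 called 2 higher and 6 lower after adjustment, where 10.4% and 11.3% of all genes tested were called.

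**Figure D3:**
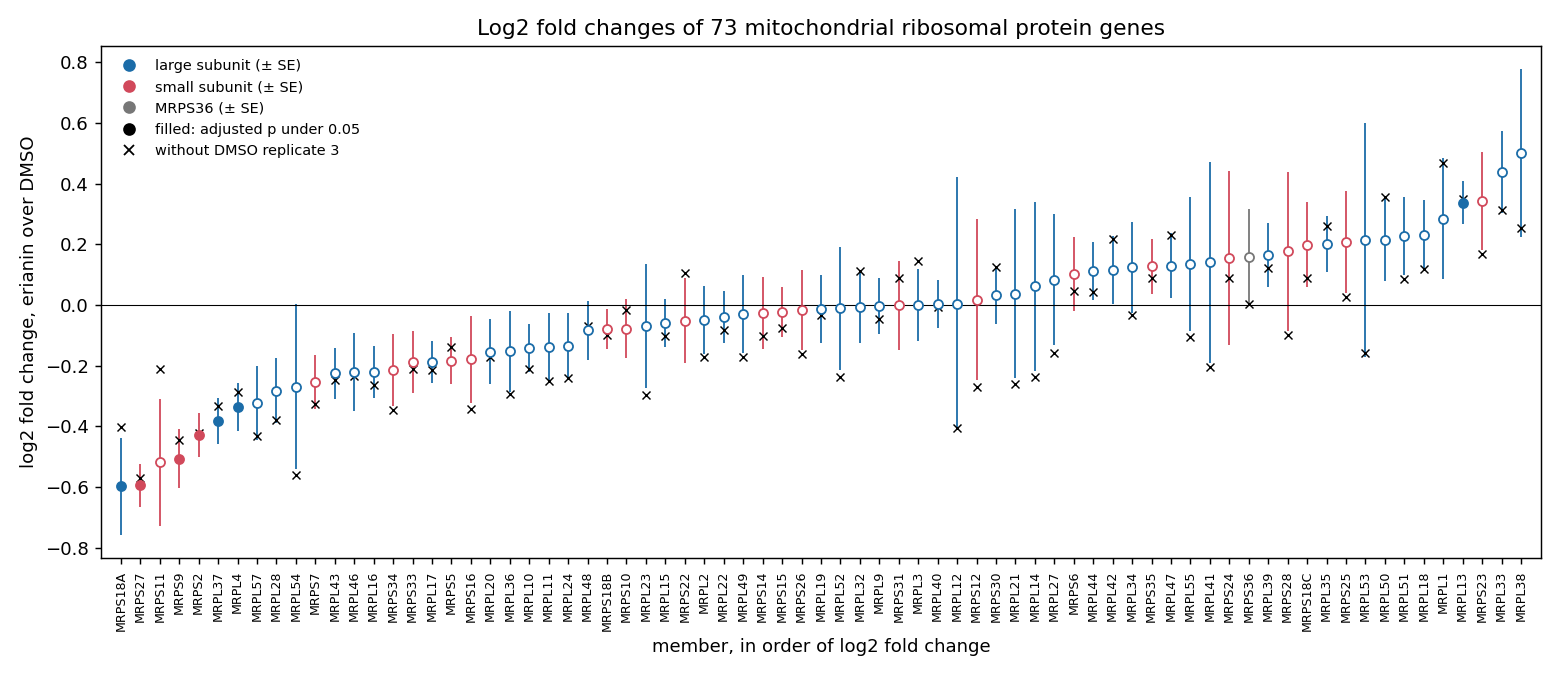
The 73 genes stand in order of log2 fold change on the horizontal axis, with the log2 fold change of erianin over DMSO on the vertical axis, circles for all 6 libraries (± SE, filled where the adjusted p is under 0.05) and crosses for the fit without DMSO replicate 3. The filled circles lie at -0.34 or below, with MRPL13 as the exception at 0.34, and the crosses of many members in the middle lie below their circles.

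MRPS11, the counterpart of bacterial S11, had the largest absolute difference among members that were not called. It was at 44.9, 44.6 and 77.1 CPM with DMSO and at 40.0, 37.2 and 39.1 CPM with erianin. DMSO replicate 3 alone lay far above the rest. It had a log2 fold change of -0.52 (SE 0.210, adjusted p = 0.142) with that library and -0.21 (adjusted p = 0.00484) without it. With the GC trend removed as well it was -0.12 and not called (adjusted p = 0.127).

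The largest positive estimates were those of MRPL38, MRPL33 and MRPS23, and none was called. MRPL38, a mitochondria-specific large-subunit protein, had only 29 to 85 counts per library, with a log2 fold change of 0.50 (SE 0.277, adjusted p = 0.267). In the annotation 37.5% of its exon bases are shared with a gene on the same strand that was listed at 0. MRPL33, the counterpart of bacterial L33, was at 18.2, 16.4 and 13.03 CPM with DMSO and at 22.2, 21.3 and 20.9 CPM with erianin. Its groups did not overlap, and the log2 fold change was 0.44 (SE 0.136, adjusted p = 0.0701). MRPS23 was at 61.7, 59.5 and 40.3 CPM with DMSO and at 69.3, 63.5 and 71.9 CPM with erianin, with a log2 fold change of 0.34 (SE 0.161, adjusted p = 0.194). MRPL33 and MRPS23 were called without DMSO replicate 3, at 0.31 and 0.17, and with the GC trend removed as well neither was, at 0.13 (adjusted p = 0.198) and 0.11 (adjusted p = 0.126).

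The stalk of the large subunit, where translation factors dock, is formed by MRPL12 on MRPL10 and MRPL11. MRPL12 was at 14.1, 14.6 and 3.92 CPM with DMSO and at 10.7, 11.5 and 10.4 CPM with erianin. DMSO replicate 3 was by far the lowest library, and the erianin libraries lay between it and the other DMSO libraries. The log2 fold change was 0.00 (SE 0.418, adjusted p = 0.997) with that library and -0.41 (adjusted p = 0.000777) without it. With the GC trend removed it was 0.18 with all libraries, and -0.15 and not called without DMSO replicate 3 (adjusted p = 0.222). MRPL12 shares 68.2% of its exon bases with AC139530.2, an annotated gene on the same strand, on which 1179 reads were counted against 2073 on MRPL12. The anchors of the stalk, MRPL10 and MRPL11, had log2 fold changes of -0.14 each (adjusted p = 0.274 and 0.454), and of -0.21 and -0.25, both called, without DMSO replicate 3. With the GC trend removed as well MRPL11 was still called, at -0.17, and MRPL10 was not, at -0.07 (adjusted p = 0.183).

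The other members that stand out by role gave no call with all 6 libraries. MRPS12, the counterpart of the S12 protein of the decoding centre, was at 73.2, 72.0 and 33.9 CPM with DMSO and at 59.97, 56.5 and 64.8 CPM with erianin. Its log2 fold change was 0.02 (adjusted p = 0.976), and -0.27 without DMSO replicate 3, which was again the lowest library. That call without DMSO replicate 3 was lost with the GC trend removed, at -0.073 (adjusted p = 0.292). MRPL3, MRPL44 and MRPS22, mutated in inherited disorders of mitochondrial translation, had log2 fold changes of 0.00, 0.11 and -0.05. MRPL3 was called without DMSO replicate 3, at 0.15 (adjusted p = 0.00643), and with the GC trend removed as well it was at 0.02 and not called. MRPS34, also a disease gene, was at 161, 161 and 120 CPM with DMSO and at 124, 124 and 132 CPM with erianin, with a log2 fold change of -0.21 (adjusted p = 0.270) and of -0.35, a call, without DMSO replicate 3. MRPS30, of the large subunit despite its name, stood at 0.03, and MRPL36, a late-joining protein of the large subunit, at -0.15. Both were called without DMSO replicate 3, MRPS30 at 0.13 (adjusted p = 0.0358) and MRPL36 at -0.29 (adjusted p = 0.000285). Both were called lower once the GC trend was removed as well, MRPS30 at -0.21 and MRPL36 at -0.16. Of the 3 relatives of S18, MRPS18A fell, while MRPS18B and MRPS18C had log2 fold changes of -0.08 (adjusted p = 0.473) and 0.20 (adjusted p = 0.383).

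With all 6 libraries the subunits were close to each other by their medians, where 7.22% of all genes tested were called higher and 7.69% lower. Of the 48 large-subunit genes, 1 was called higher and 3 lower, and the median log2 fold change was -0.01, and of the 24 small-subunit genes none was called higher and 3 lower, with a median of -0.04. At an unadjusted p under 0.05 edgeR gave 2 large-subunit genes higher and 8 lower, and 0 small-subunit genes higher and 6 lower. Over all genes tested these shares were 15.3% higher and 15.6% lower. DESeq2 called 2 large-subunit genes higher and 3 lower, and 0 small-subunit genes higher and 3 lower, beside 10.4% and 11.3% of all genes tested. Without DMSO replicate 3, 9 large-subunit genes were called higher and 22 lower (median -0.16), and 1 small-subunit gene higher and 11 lower (median -0.10). In that fit 27.5% of all genes tested were called higher and 27.7% lower. The large and small medians were -0.01 and -0.10 with the GC trend removed, and -0.07 and -0.14 with that library left out as well. The difference between the subunits was not tested. By origin, with all 6 libraries 1 of 43 members grouped under a bacterial counterpart was called higher and 3 lower (median -0.02). Of 29 members grouped as gained in mitochondria, 3 were called lower and none higher (median -0.01). The latter group holds MRPS18A, called lower, and MRPS18B, although both are relatives of bacterial S18. Without DMSO replicate 3 the bacterial group had 6 higher and 21 lower (median -0.14), and the mitochondrial group 4 and 12 (median -0.10).

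When DMSO replicate 3 was left out, 10 members were called higher and 33 lower, and the median over the members was -0.10. All 7 genes called with the 6 libraries were called again in the same direction. In that fit 27.5% of all genes tested were called higher and 27.7% lower, with a median of 0.02, so that 13.7% of members were called higher and 45.2% lower against that background. Dispersion between libraries, as a biological coefficient of variation, went from 0.139 to 0.0421 when that library was dropped. Chosen after their values were seen, MRPL54, MRPL57, MRPL28, MRPS34, MRPS16 and MRPS7 were among the genes called lower in this fit, with log2 fold changes of -0.56, -0.43, -0.38, -0.35, -0.34 and -0.33. MRPL1, MRPL50, MRPL13 and MRPL33 were among those called higher, at 0.47, 0.36, 0.35 and 0.31.

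With the GC trend of each library removed as well, 3 members were called higher and 27 lower, again with a median of -0.10, against 22.2% and 23.2% of all genes tested. The lower calls of the 2 fits without DMSO replicate 3 shared 18 genes, which is 54.5% of the 33 and 66.7% of the 27, and among them were MRPS27, MRPS9, MRPS2, MRPS18A and MRPL37. They also held MRPL54, MRPL57, MRPS16, MRPS7, MRPL16, MRPL11, MRPL17 and MRPS5. No gene was called higher in both: the 10 and the 3 were different genes, and MRPL13 had a log2 fold change of 0.03 with the GC trend removed.

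Levels were compared between members per length. The deposited TPM values were found to divide the count of a gene by the summed length of all its annotated transcripts (within 1% in 95.3% of genes tested and in 72 members), so that a gene with many annotated transcripts has a lower TPM. The members had between 1 and 34 transcripts. The 3 highest mean TPM values were those of MRPS26, MRPL14 and MRPL41, each with 1 annotated transcript. Levels are therefore given as CPM per kilobase of the merged exons of a gene (GENCODE release 29), a scale on which 13 members moved by more than 10 places in the order of the 73.

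On this scale the members spanned 0.365 to 134 in the DMSO mean, with a median of 16.5 and quartiles of 8.72 and 34.9. MRPS34 and MRPS26, both mitochondria-specific small-subunit proteins, were highest, at 134 ± 21.4 and 117 ± 20.7 with DMSO (SD, n = 3) and 116 ± 4.24 and 116 ± 6.11 with erianin. Neither was called with all 6 libraries. Both were called lower without DMSO replicate 3, MRPS34 at -0.35 and MRPS26 at -0.16 (adjusted p = 0.00396). With the GC trend removed as well, MRPS34 was still called, at -0.10 (adjusted p = 0.0485). MRPS26 was then at 0.08 and not called (adjusted p = 0.133). MRPL14, at the interface of the subunits, followed at 74.3 ± 29.2 with DMSO and 77.5 ± 4.09 with erianin, close to MRPS18B at 71.1 ± 2.07 and 67.3 ± 2.29. The lowest members were MRPS24 (0.365 ± 0.0395 with DMSO), MRPL38 (0.397 ± 0.124), MRPL53 (0.942 ± 0.483) and MRPL46 (1.28 ± 0.0939).

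Several of these low levels belong to genes that share exons with others. MRPS24 shares 23.2% of its exon bases with the read-through gene URGCP-MRPS24, and MRPL53 shares 45.2% with CCDC142, both on the same strand. On CCDC142 1895 reads were counted against 259 on MRPL53, while URGCP-MRPS24 was listed at 0. MRPL38 was described above. The largest shift in the order between groups among the genes that fell was that of MRPS9, which stood at place 37 with DMSO and at place 48 with erianin. MRPS27 moved from place 25 to place 34, and MRPL13 from place 46 to place 41.

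**Figure D4:**
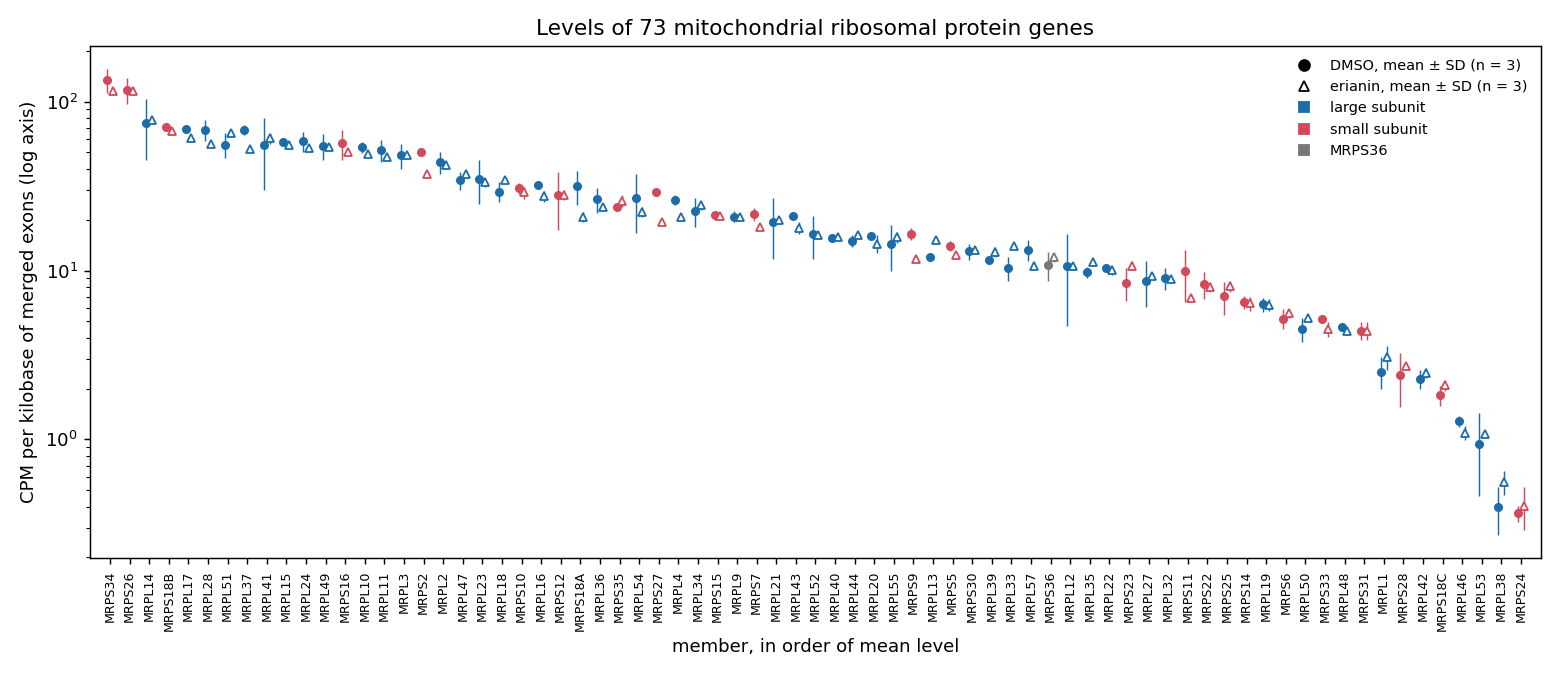
The 73 genes stand in order of their mean level on the horizontal axis, with CPM per kilobase of merged exons on a log axis on the vertical axis, circles for DMSO and triangles for erianin (mean ± SD, n = 3), and colours for the subunit. Levels run from 0.365 (MRPS24, DMSO) to 134 (MRPS34, DMSO), and the SD is wider in the DMSO group in 58 of the 73 genes.

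Summed over the members of a subunit and taken per kilobase, the ratio of large to small subunit was 1.94, 1.94 and 1.87 in the DMSO libraries and 2.09, 2.03 and 1.98 in the erianin libraries. All 3 erianin libraries lay above all 3 DMSO libraries. The means were 1.92 ± 0.0425 and 2.03 ± 0.0549 (SD, n = 3), and 0.1 is the smallest p that an exact two-sided permutation test of 3 against 3 libraries allows. On the deposited TPM scale the ratio was 1.76, 1.77 and 1.61 with DMSO and 1.85, 1.78 and 1.75 with erianin, and there the groups overlapped. In the sum of CPM over all 73 genes the libraries held 4848, 4695 and 4163 CPM with DMSO and 4289, 4133 and 4338 CPM with erianin. The 2 DMSO libraries other than replicate 3 were the highest, and replicate 3 lay among the erianin libraries.

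The proteins of the mitoribosome that carry other symbols were not called with all 6 libraries. These 5 are DAP3, PTCD3, CHCHD1 and AURKAIP1 of the small subunit and GADD45GIP1 of the large subunit. Their log2 fold changes were -0.17, -0.09, 0.13, 0.05 and -0.18, and 0 of the 5 had an unadjusted p under 0.05 in edgeR or were called by DESeq2. GADD45GIP1 was at 119, 118 and 97.4 CPM with DMSO and at 99.8, 91.0 and 105 CPM with erianin, so its groups overlapped through DMSO replicate 3. Without that library 3 of the 5 were called lower, DAP3 at -0.11, AURKAIP1 at -0.18 and GADD45GIP1 at -0.27, and none higher. In that fit 27.5% of all genes tested were called higher and 27.7% lower.

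The factors that build and serve the mitoribosome were taken from lists of known function. With all 6 libraries, 7.22% of all genes tested were called higher and 7.69% lower, the background for the calls in all of these lists. Of 25 assembly factors tested, 4 were called lower (GTPBP6, NOA1, RBFA and TRUB2) and none higher. GTPBP6, a GTPase of large-subunit assembly, was at 66.2, 65.0 and 46.4 CPM with DMSO and at 35.7, 32.6 and 37.2 CPM with erianin, and its log2 fold change was -0.75 (SE 0.146, adjusted p = 0.0165). Its groups did not overlap although DMSO replicate 3 lay below the other DMSO libraries, and it stood at -0.90 without that library.

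Of 15 translation factors and related proteins, OXA1L, the insertase that brings new chains into the inner membrane, was called lower, with 297, 288 and 361 CPM with DMSO and 219, 212 and 208 CPM with erianin. The elongation factor TUFM was at -0.26 (adjusted p = 0.165), and at -0.38 and called without DMSO replicate 3. Of 20 mitochondrial aminoacyl-tRNA synthetases and their partners, EARS2, PARS2 and GATB were called lower and none higher, and PARS2 was at -0.59 (SE 0.122, adjusted p = 0.0194). Of 14 genes of mitochondrial RNA synthesis and processing, ELAC2, which trims the 3′ ends of tRNAs, was called lower. With the GC trend removed, ELAC2, EARS2 and NOA1 were no longer called (adjusted p = 0.0563, 0.0590 and 0.0772). In that fit 4 assembly factors, 6 tRNA synthetases or partners and 0 genes of RNA synthesis were called lower, and 0 in these lists higher. There 18.2% of all genes tested were called, both directions together.

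TRAP1, the mitochondrial HSP90, had the clearest difference in these lists. It was at 359, 355 and 354 CPM with DMSO and at 225, 213 and 218 CPM with erianin, with all DMSO libraries far above all erianin libraries. The log2 fold change was -0.70 (SE 0.063, adjusted p = 0.00150), and -0.71 without DMSO replicate 3. With the protease LONP1 it made 2 of the 12 chaperones and proteases called lower, while HSPD1 and HSPA9 stood at 0.17 and 0.10 and were not called (0.26 and 0.16, both called, without DMSO replicate 3). None of 8 regulators was called in either direction with all libraries, MYC among them at 0.25 (adjusted p = 0.176), and at an unadjusted p under 0.05 edgeR gave 1 higher and 0 lower, while DESeq2 called 0. Without DMSO replicate 3, 4 regulators were called higher, MYC at 0.37 and GABPA at 0.53 among them, and 1 lower, ESRRA at -0.30. In that fit 27.5% of all genes tested were called higher and 27.7% lower. With the GC trend removed as well, 3 regulators were called higher and 0 lower, so the lower call of ESRRA was lost. There 22.2% and 23.2% of all genes tested were called. The mRNAs encoded by mitochondrial DNA, which the mitoribosome translates, were not analysed here.

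In edgeR at an unadjusted p under 0.05, 0 assembly factors were higher and 9 lower, 0 translation factors higher and 1 lower, 0 tRNA synthetases higher and 6 lower, 3 genes of RNA synthesis higher and 1 lower, and 2 chaperones or proteases higher and 3 lower, beside the shares of 15.3% and 15.6% over all genes tested. DESeq2 called 0, 0, 0, 2 and 1 higher in these lists and 6, 1, 6, 1 and 2 lower, beside 10.4% and 11.3%. Without DMSO replicate 3, edgeR called 3 assembly factors higher and 14 lower, 4 translation factors higher and 4 lower, 0 tRNA synthetases higher and 10 lower, 6 genes of RNA synthesis higher and 4 lower, and 6 chaperones or proteases higher and 5 lower, where 27.5% and 27.7% of all genes were called.

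The cytosolic ribosomal proteins and the nuclear-encoded respiratory chain subunits served for comparison. Of 84 cytosolic ribosomal protein genes tested, none was called higher and 6 lower (RPL4, RPL12, RPL23A, RPL28, RPL37 and RPS2), and their median was -0.09 on the log2 scale. Of 56 respiratory chain subunits, NDUFA10 was called lower and none higher, with a median of 0.07. Among all genes tested, 7.22% were called higher and 7.69% lower, or 27.5% and 27.7% without DMSO replicate 3. Without DMSO replicate 3, 62 of the 84 cytosolic genes were called lower and 5 higher (median -0.22), and 28 of the 56 respiratory genes lower and 6 higher (median -0.13). With all libraries and an unadjusted p under 0.05, edgeR gave 3 cytosolic genes higher and 14 lower and 4 respiratory genes higher and 6 lower (15.3% and 15.6% of all genes tested). DESeq2 called 3 cytosolic genes higher and 8 lower and 1 respiratory gene higher and 3 lower after adjustment (10.4% and 11.3%). The members, at a median of -0.10 in the fit without that library, lay above both medians, and the differences between the lists were not tested.

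**Figure D5:**
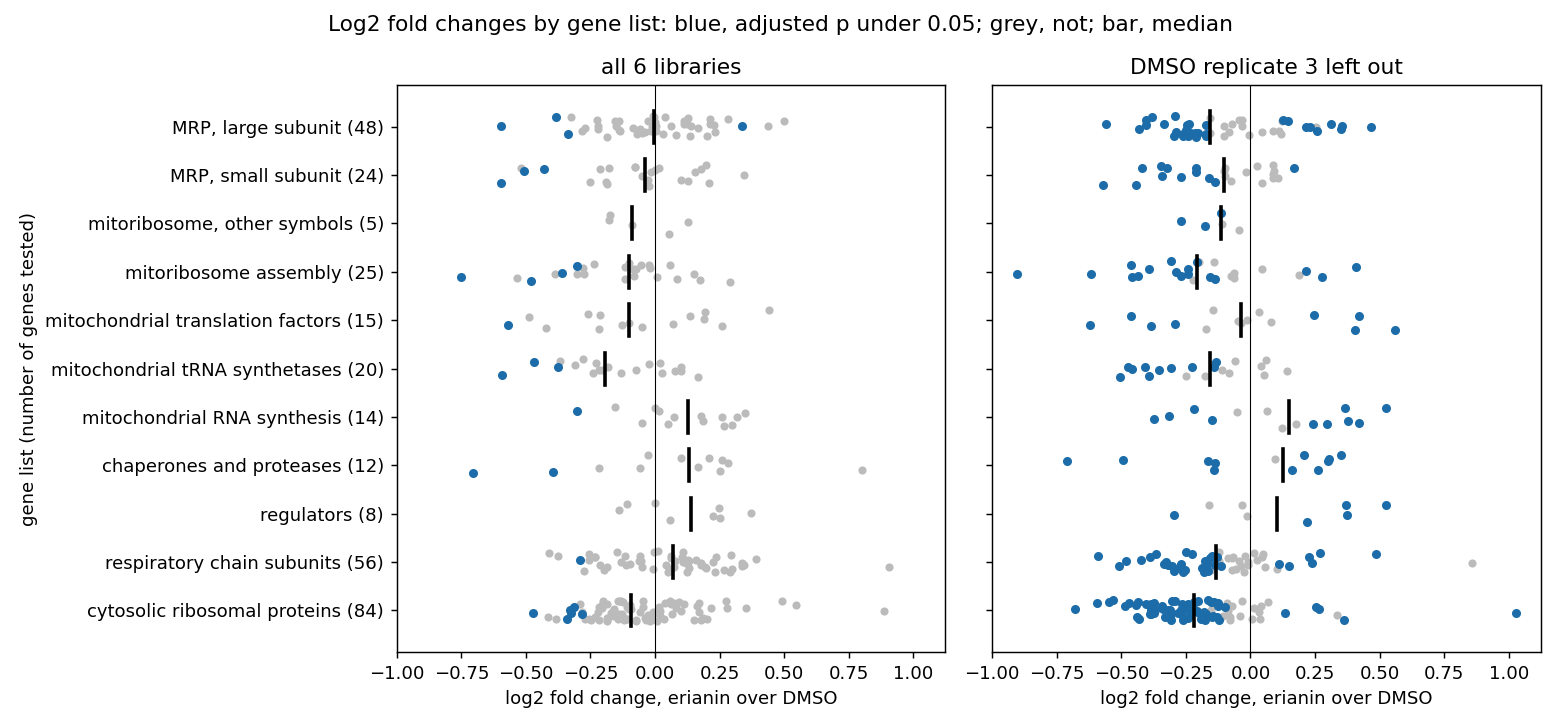
Each row is 1 list with the number of genes tested, and each point 1 gene, with its log2 fold change of erianin over DMSO on the horizontal axis, from all 6 libraries on the left and without DMSO replicate 3 on the right. Blue points have an adjusted p under 0.05 and bars are medians, and the medians of the large subunit, the respiratory chain and the cytosolic ribosomal proteins lie lower on the right than on the left.

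Many members start close to another gene. For 28 members a protein-coding gene on the opposite strand had its annotated start within 1000 bases. This gave 27 entries of a member and a tested partner. MRPS11 and MRPL46 are partners of each other, and their pair is entered from each side. Among the partners, 1 was called higher (TCP1 beside MRPL18) and 3 lower (PELI3 beside MRPL11, PPP1R10 beside MRPS18B and NCAPD2 beside MRPL51), and the member of each of these pairs was not called. Of all genes tested, 7.22% were called higher and 7.69% lower. PTCD2, which starts beside MRPS27, had a log2 fold change of 0.02 (SE 0.106, adjusted p = 0.933).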

How the data were processed

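The authors deposited raw counts per gene, not normalized, and a table of TPM for the same 6 libraries. The submitters' processing notes name fastp 0.23.2, STAR 2.7.10, featureCounts 2.0.1, StringTie 2.2.1 and GRCh38 (hg38). Strandedness was not given in the sources used here, so reads of overlapping genes cannot be told apart. Of 65807 rows, 26480 without an identifier (0.00385% to 0.00515% of counts) were left out, and of rows sharing an identifier the one with most counts was taken. The TPM columns sum to 59.1% to 78.3% of their nominal total of 1e6.

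Counts were tested on the whole table with edgeR 4.0.16 in R 4.3.3 (TMM, filterByExpr by group, quasi-likelihood, no covariate), with Benjamini-Hochberg adjustment over 12821 genes. SEs were derived from the F statistic. Biological coefficients of variation are edgeR's. On simulated counts for this comparison, edgeR recovered 200 of 200 changed genes over 12707 genes, with 15 unchanged genes called. Recovery of differences with the size and spread seen in the members, DMSO replicate 3 included, was not tested. GC trends were removed by a loess offset with a span of 0.5. Coordinates, exons and GC content came from GENCODE release 29, matched by identifier.

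The members and lists were chosen with earlier results of these data known. Members named were those called, the 3 largest and 3 smallest fold changes, fixed roles and extremes of mean TPM, and in each related list up to 4 DEGs and the 2 highest mean TPM. Others named were chosen after their values were seen. Levels were to be compared as TPM, but CPM per kilobase was used because of the length behind the TPM. Alternatives were DESeq2 1.42.0, limma 3.58.1 on log2(TPM + 1), upper-quartile and RLE factors, other filters, a replicate block, GC and length offsets, and each library left out. Python 3.11.15 was used for tables and figures. Some marker genes are not reported here. Protein measurements were not analysed here.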

Additional observations from a re-analysis of the deposited data

How the results depend on the processing

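The design of 3 libraries per group, with 1 DMSO library apart from the rest, limits these results, and members below about 100 counts per library are imprecise. With all libraries 1 member was called higher and 6 lower, and leaving out 1 library in turn gave 0 to 10 higher, 1 to 33 lower and 1 to 2 DEGs in place of 3, with a median log2 fold change of -0.10 to 0.0048. The extremes of 10 and 33 and the median of -0.10 came without DMSO replicate 3. Over all genes, the fits that left out 1 library called between 2.40% and 55.2% in either direction, against 14.9% with all libraries. When 1 of the erianin libraries was left out, whichever it was, MRPS27 was the only member called. In those fits just 2.57%, 2.46% and 2.40% of all genes were called, without erianin replicates 1, 2 and 3 in turn. MRPS27 was called under 22 of 22 alternatives, MRPS9 under 17, MRPS2 under 14, MRPL13 under 12, MRPL37 under 11, MRPL4 under 8 and MRPS18A under 7, and none of these 7 changed direction.

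Higher calls numbered 2 with DESeq2, 2 with upper-quartile factors, 5 with limma on log2(TPM + 1), 5 with a pseudocount of 0.1, 3 without the TPM filter, 2 on rescaled TPM (added after seeing the data), and 0 with the GC trend removed, alone or with the replicate block, or the length trend removed with the block. Lower calls numbered 2 in each of the 4 TPM fits, 3 with the GC trend removed, 2 with that and the block, and 3 with the length trend removed and the block. DEGs numbered 1 with upper-quartile factors, 1 with TPM without a filter, 1 with rescaled TPM and 0 at an absolute log2 fold change over 1. In the TPM fits the median over members was 0.18, 0.19 and 0.19, where the median of all genes was also shifted, to 0.18, 0.20 and 0.12. Same-numbered libraries did not deviate together (correlations of deviations 0.00138, 0.0253 and -0.0329), and with the replicate block 0 members were called higher and 2 lower, with 1 DEG. That block alone gave calls in 5.81% of all genes.

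With the GC trend removed and DMSO replicate 3 left out, 3 were higher and 27 lower (median -0.10). With the length trend removed in place of the GC trend (added after seeing the data) there were 9 and 35 (median -0.11). Over all genes, 45.4% and 55.2% were called in these 2 fits, both directions together. The log2 of the summed member level, erianin over DMSO, was 0.13 in TPM, -0.10 in CPM and -0.084 in CPM per kilobase (added after seeing the data). Without DMSO replicate 3 these were -0.014, -0.17 and -0.17 (added after seeing the data), so the TPM value changed sign.

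Some log2 fold changes, positive with all libraries and not called, were negative and called without DMSO replicate 3. Leaving out 1 library in turn, they ran from -0.18 (without DMSO replicate 3 here and for the rest) to 0.20 for AURKAIP1, from -0.32 to 0.32 for COX8A, from -0.30 to 0.29 for ESRRA, from -0.15 to 0.21 for HSD17B10, from -0.41 to 0.29 for MRPL12, from -0.24 to 0.24 for MRPL14, from -0.20 to 0.38 for MRPL41, from -0.27 to 0.18 for MRPS12, from -0.22 to 0.15 for POLRMT, and from -0.13 to 0.55 for RPS12. With that library left out and the length trend removed they were -0.19, -0.32, -0.32, -0.16, -0.41, -0.24, -0.20, -0.28, -0.24 and -0.13 in the same order, and YARS2 was at -0.15. With that library left out and the GC trend removed, CHCHD1 (-0.21), COX8A (-0.14), IARS2 (-0.16) and MRPS30 (-0.21) were negative and called. In this fit MRPL41 turned the other way and was called higher, at 0.13 (adjusted p = 0.0314). MRPL14 was at -0.091 and no longer called (adjusted p = 0.145). Without that library alone CHCHD1 was at -0.11, COX8A at -0.32, IARS2 at 0.039 and MRPS30 at 0.13, so in IARS2 and MRPS30 the sign changed only with the GC trend removed. The cause of these changes was not tested.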

Other observations

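Some values belong to no comparison above. Processed pseudogenes of the mitochondrial ribosomal protein genes were detected on 6 rows of the count table, which together held 0.00225% as many counts as the members. Of the 73 members, 39 share at least 1 exon base with another annotated gene, and 15 share at least 10% of their exon bases with a gene on the opposite strand. Many of the annotated partners, among them the read-through genes URGCP-MRPS24 and AC087289.3, were listed at 0 in the count table.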
